A study of Mus musculus with 4 samples.

Results

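The collagen chain genes are all genes whose array name is Col, a type number, the letter a and a chain number. They were 35 of the 24171 gene symbols measured, read by 63 of the 44170 targets (probe sets) of the array. By known role they comprised 10 fibrillar chains, 7 chains of the basement membrane zone and 18 other chains. Back skin of male BALB/c mice, 8 weeks old, was treated with creams 2 times a day for 5 days and measured on NimbleGen 1-colour arrays, 1 array per group. The ATRA+NIC group received a retinoic acid cream (0.1% all-trans retinoic acid, ATRA) and a nicotinamide (NIC) cream, the ATRA group the retinoic acid cream alone, the NIC group the nicotinamide cream alone, and the Control group an oil/water cream. The labels give no concentration of nicotinamide and do not say how many mice an array stands for. They call the tissue skin, while the series title speaks of epidermis. The dermal collagens Col1a1, Col1a2 and Col3a1 read far above the random control probes on every array, as given below.

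Collagens are trimers of alpha chains wound into a helix. Fibrillar chains (types I, III and V in skin) are secreted as procollagens, trimmed by proteases and assembled into the fibrils that give the dermis its tensile strength, and are made mainly by fibroblasts. Type IV chains form the sheet of every basement membrane, type XVII is a transmembrane protein that anchors basal keratinocytes to it, and types XV and XVIII are proteoglycan-bearing collagens of basement membrane zones. Type VI forms beaded microfilaments between fibrils and basement membranes, and types XII and XIV sit on the surface of fibrils. Retinoic acid acts through nuclear receptors and is known in skin for effects on collagen synthesis and on the proteases that cut collagen. Nicotinamide, a form of vitamin B3, is used by cells to make NAD.

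The stretch upstream of the start is shown for 4 chain genes that the results below turn on: Col1a2 and Col3a1 among the fibrillar chains, and Col6a1 and Col6a3 among the type VI chains. Each is the 250 bases before the transcript start in RefSeq (GRCm38.p6), written 5′ to 3′ in the direction of the gene, with capitals for a match on either strand to the TATA box TATAAA, the CCAAT box CCAAT, the GC box GGGCGG or the nuclear receptor motif AGGTCA. Col1a2 lies at chr6:4505368-4505617 (+), Col3a1 at chr1:45311288-45311537 (+), Col6a1 at chr10:76726045-76726294 (-) and Col6a3 at chr1:90843972-90844221 (-).
Col1a2: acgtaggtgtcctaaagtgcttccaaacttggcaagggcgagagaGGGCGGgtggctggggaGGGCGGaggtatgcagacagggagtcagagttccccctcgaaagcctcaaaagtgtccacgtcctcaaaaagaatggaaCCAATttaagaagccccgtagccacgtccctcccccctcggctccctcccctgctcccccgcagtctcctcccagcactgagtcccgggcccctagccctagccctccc
Col3a1: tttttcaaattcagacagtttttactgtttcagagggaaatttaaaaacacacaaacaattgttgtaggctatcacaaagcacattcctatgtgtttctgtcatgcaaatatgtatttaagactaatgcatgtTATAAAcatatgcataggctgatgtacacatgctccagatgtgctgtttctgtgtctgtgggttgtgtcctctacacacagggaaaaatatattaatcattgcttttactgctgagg
Col6a1: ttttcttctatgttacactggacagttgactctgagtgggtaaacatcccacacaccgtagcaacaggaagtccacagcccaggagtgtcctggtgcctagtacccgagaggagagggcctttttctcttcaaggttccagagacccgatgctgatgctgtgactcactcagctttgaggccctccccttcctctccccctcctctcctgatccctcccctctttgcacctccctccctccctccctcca
Col6a3: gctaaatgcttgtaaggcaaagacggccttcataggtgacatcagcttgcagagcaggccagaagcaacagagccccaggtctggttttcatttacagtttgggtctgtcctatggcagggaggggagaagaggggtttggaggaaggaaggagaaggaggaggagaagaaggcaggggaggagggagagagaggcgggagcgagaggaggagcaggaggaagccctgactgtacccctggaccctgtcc
The Col1a2 window held a CCAAT box and 2 GC boxes, the Col3a1 window a TATA box, and the windows of Col6a1 and Col6a3 none of the 4 motifs. RefSeq promoters were found for 27 of the 35 genes, 30 windows in all. The TATA box was in 5 of the 30 (12.4% of all 32851 promoters held it), the CCAAT box in 10 (33.8%), the GC box in 15 (32.7%) and the receptor motif AGGTCA in 4 (14.0%). In the windows shown no matches overlap. These are matches of letters, and an absent match says only that these letters are not in the window.

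The authors' RMA-normalised intensities are given as values, and differences are on the log2 scale, where 1 is 2-fold. The random control probes read 36.3 on the ATRA+NIC array, 34.8 on ATRA, 34.0 on NIC and 34.2 on Control, and the median target 102, 102, 103 and 105 on the same arrays. A gene was called readable on an array where its brightest target reached 2 times the random probes. The brightest target is the one with the highest mean log2 intensity over the 4 arrays. By that measure 17 of the 35 genes were readable on all 4 arrays, 13 on 1 to 3 arrays, and 5 on none (Col8a1, Col8a2, Col9a2, Col10a1 and Col20a1). Of the 35, 15 had 1 target and 20 had several. The main text below gives the brightest target of each gene, because 9 genes that were readable on all arrays hold a dimmer target that is not, and averaging mixes both. The averaged values, which were the planned main setting, follow further on. With 1 array per group there is no spread between replicates to compare a difference with, which limits the precision of each value. The intensity of one gene is not comparable with that of another.

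A closer description is given of the 13 genes whose brightest target had a mean log2 intensity over the 4 arrays at or above that of 668, the 75th percentile of all symbols. They were 4 fibrillar chains (Col1a1, Col1a2, Col3a1 and Col5a2), 4 of the basement membrane zone (Col4a1, Col15a1, Col17a1 and Col18a1) and 5 others (Col6a1, Col6a2, Col6a3, Col12a1 and Col14a1). Most of these chains read higher with retinoic acid than without it. Of the 13, 12 were above 0 in ATRA minus Control, where 58.5% of the 6043 equally bright symbols were. In ATRA+NIC minus NIC 9 were above 0 (51.8% of symbols). These 2 differences share no array, and 8 of the 13 were above 0 in both (33.6%) and 0 below 0 in both (23.3%). With 12 and 9 above 0, 8 is the fewest that could be above 0 in both. Only 1 gene was below 0 in ATRA minus Control, so at most 1 could be below 0 in both. These joint counts therefore add nothing to the counts of 12 and 9. Median-centring the arrays, chosen after the data were seen, gave 12 and 10 of 13 above 0 in the 2 differences, and cyclic loess 12 and 9.

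**Figure D1:**
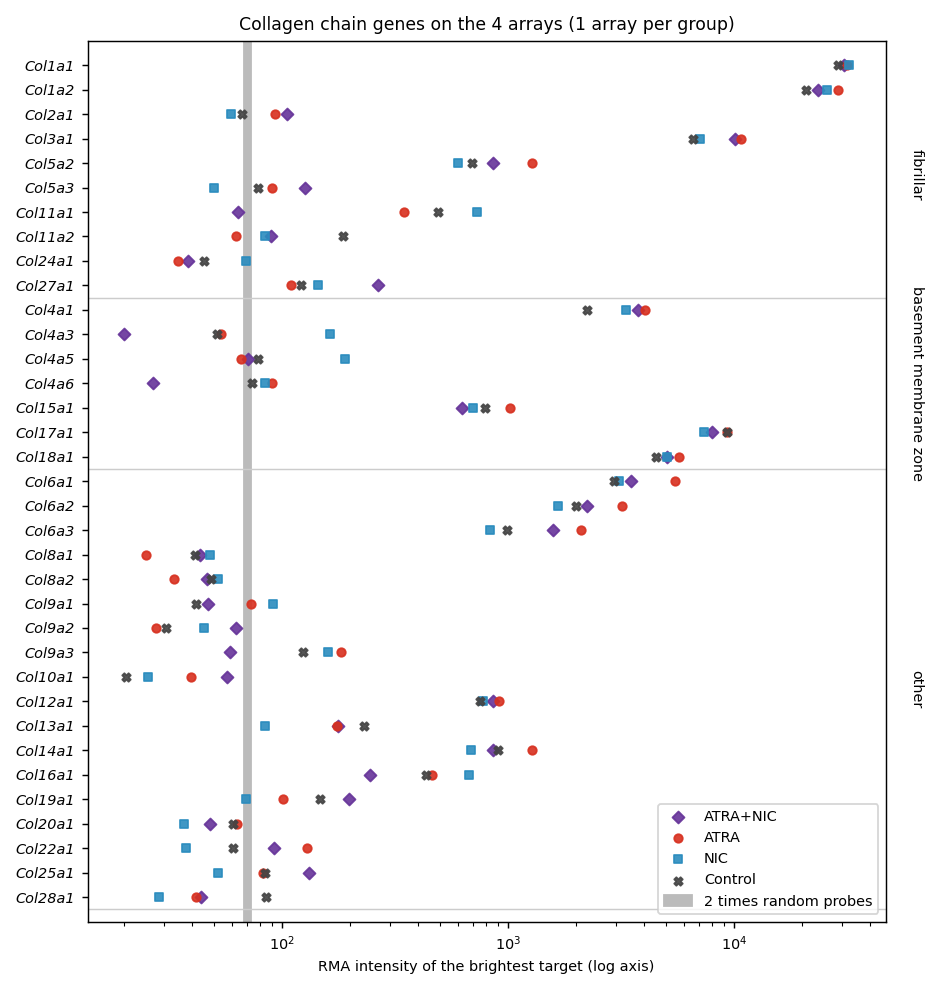
Intensity of the brightest target of all 35 collagen chain genes (log axis, RMA intensity), 1 point per array and gene, grouped as fibrillar, basement membrane zone and other chains. The grey band marks 2 times the random probes of the 4 arrays; 17 genes reach their array's level on every array, and 5 on none.

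Col1a1 and Col1a2 encode both chains of type I collagen, the main fibrillar collagen of dermis. Col1a1, with 1 target (chr11:94797583-94813170, MM9), read 30740 on ATRA+NIC, 31605 on ATRA, 32430 on NIC and 28780 on Control. All 4 arrays lay within a narrow span, and the differences were -0.08 for ATRA+NIC minus NIC and 0.14 for ATRA minus Control. The brightest target of Col1a2 (chr6:4455716-4490731, MM9) read 23638, 28802, 25934 and 20809 on the same arrays. It was highest on ATRA, and both nicotinamide arrays lay between ATRA and Control. Its ATRA differences had opposite signs, 0.47 against Control and -0.13 against NIC.

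Col3a1 encodes type III collagen, which forms thin fibrils together with type I. Its brightest target (chr1:45368507-45405865, MM9) read 10060 on ATRA+NIC and 10717 on ATRA, against 7088 on NIC and 6606 on Control. Both arrays with retinoic acid lay above both without it, by 1.62-fold in ATRA over Control and 1.42-fold in ATRA+NIC over NIC. Col5a2, a chain of type V collagen that nucleates fibrils and regulates their diameter, read 857 on ATRA+NIC and 1273 on ATRA, against 603 on NIC and 694 on Control. Again the arrays with retinoic acid did not overlap those without, with folds of 1.83 and 1.42. Col3a1 and Col5a2 are neighbours on chromosome 1. Col5a1, the partner chain of type V, was not analysed here.

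Among the basement membrane chains, Col4a1, a chain of the type IV network found in all basement membranes, had 1 target (chr8:11198429-11312689, MM9). It read 3776 on ATRA+NIC, 4041 on ATRA, 3337 on NIC and 2237 on Control. The Control array was the lowest, and every treated array lay above it, by 0.76, 0.85 and 0.58 in ATRA+NIC, ATRA and NIC. With nicotinamide in both groups the difference for retinoic acid was 0.18. Its divergently transcribed neighbour Col4a2 was not analysed here.

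Col17a1, the hemidesmosomal collagen of basal keratinocytes, read 7986 on ATRA+NIC and 9272 on ATRA, against 7395 on NIC and 9317 on Control. It was the 1 bright chain below 0 in ATRA minus Control, by -0.01. Both nicotinamide arrays were below both others, with differences of -0.33 in NIC minus Control and -0.22 in ATRA+NIC minus ATRA. Col18a1, whose C-terminal fragment is endostatin, read 5053, 5708, 5069 and 4505 on ATRA+NIC, ATRA, NIC and Control. Col15a1, its close relative, read 628, 1017, 701 and 792 in the same order. Both were highest on ATRA and showed no retinoic acid difference above 0 where nicotinamide was in both groups (-0.00 for Col18a1 and -0.16 for Col15a1). Col7a1, the anchoring fibril collagen, was not analysed here.

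The type VI chains, which assemble with one another into microfilaments, included the largest ATRA differences of the 13 bright genes. Col6a3 had the largest in both pairs of arrays. Its brightest target (chr1:92663434-92740514, MM9) read 1576 on ATRA+NIC and 2110 on ATRA, against 831 on NIC and 986 on Control. That is 2.14-fold in ATRA over Control and 1.90-fold in ATRA+NIC over NIC. Its targets disagree: the second, readable on all 4 arrays, read 375 on ATRA+NIC, 117 on ATRA, 80.9 on NIC and 291 on Control, with 2.21 in ATRA+NIC minus NIC but -1.31 in ATRA minus Control. Col6a1 read 3490 on ATRA+NIC and 5499 on ATRA, against 3083 on NIC and 2939 on Control. Its fold was 1.87 in ATRA over Control and 1.13 in ATRA+NIC over NIC. Col6a2, its neighbour on chromosome 10, read 2232 on ATRA+NIC and 3203 on ATRA, against 1671 on NIC and 2004 on Control. By their brightest targets all 3 type VI chains had both arrays with retinoic acid above both without it and ATRA as the highest array. The second target of Col6a2, readable on all 4 arrays, did not: it read 219 on ATRA+NIC, 212 on ATRA, 261 on NIC and 231 on Control. Its differences were -0.26 in ATRA+NIC minus NIC and -0.12 in ATRA minus Control, where the third target had 0.16 and 0.60.

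Col12a1 and Col14a1 encode chains that bind to fibril surfaces. Col12a1 read 856 on ATRA+NIC and 910 on ATRA, against 776 on NIC and 754 on Control, a small difference in the same direction (0.27 and 0.14). Col14a1 read 861 on ATRA+NIC, 1276 on ATRA, 686 on NIC and 899 on Control. Its ATRA+NIC array lay below Control, so that retinoic acid arrays and the others overlapped, although both ATRA differences were above 0 (0.51 and 0.33). The second target of Col14a1, readable on all 4 arrays, read 427 on ATRA+NIC, 626 on ATRA, 450 on NIC and 386 on Control. It had -0.08 in ATRA+NIC minus NIC and 0.70 in ATRA minus Control.

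Taken by size, 6 of the 13 bright genes reached 1.5-fold or more in ATRA minus Control (9.32% of the 6043 symbols): Col3a1, Col5a2, Col4a1, Col6a1, Col6a2 and Col6a3. In ATRA+NIC minus NIC 1 was, Col6a3 (12.9% of symbols), which was also the only one in both (2.50%). At 2-fold the count was 0 in ATRA+NIC minus NIC (3.31%) and 1 in ATRA minus Control (1.39%). Both arrays with retinoic acid lay above both without it for 7 of the 13, where 25.5% of symbols did so. The median of the 13 was 0.18 in ATRA+NIC minus NIC, where the median of the 6043 symbols was 0.02, and 0.51 in ATRA minus Control, where it was 0.08. The share in ATRA+NIC minus NIC at 1.5-fold is no larger than the background. In ATRA+NIC minus Control 10 of the 13 were above 0 (55.9%) and 3 were at least 1.5-fold higher (10.1%), Col3a1, Col4a1 and Col6a3.

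**Figure D2:**
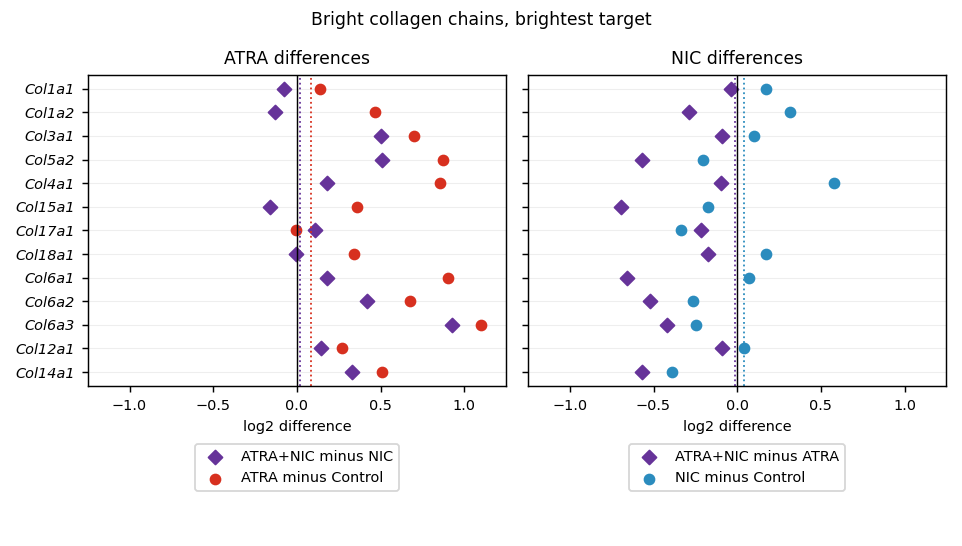
Differences (log2, x axis) of the brightest target for the 13 bright collagen chain genes. Retinoic acid differences are on the left and nicotinamide differences on the right, diamonds for the pair within the other treatment and circles for the pair without it, and dotted lines are the medians of the 6043 equally bright symbols in the same colours. In ATRA minus Control 12 of 13 circles lie right of 0, and in ATRA+NIC minus ATRA all 13 diamonds lie left of 0.

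The addition of nicotinamide gave no shared direction in the absence of retinoic acid. In NIC minus Control 7 of the 13 bright genes were above 0 (53.6% of symbols) and 6 below (46.4%), and the median was 0.04, as for all bright symbols. Cyclic loess gave 6 above and a median of -0.01. In ATRA+NIC minus ATRA all 13 were below 0 (51.8%), with a median of -0.29 against -0.01 for all bright symbols, and median-centring left 12 of 13. Those at least 1.5-fold lower were 2 (4.19%), Col15a1 with -0.70 and Col6a1 with -0.66. ATRA was the highest array for 11 of the 13 (24.9% of symbols), and ATRA minus Control and ATRA+NIC minus ATRA both contain that array, so these counts are not separate evidence. In both nicotinamide differences 6 genes were below 0 (23.7%) and 0 above 0 (25.5%). Because all 13 were below 0 in ATRA+NIC minus ATRA, the count of 0 was fixed. The 6 are those below 0 in NIC minus Control (46.4% of symbols), so these counts add nothing to the ones above. By their brightest targets Col14a1, Col15a1 and Col17a1 had both nicotinamide arrays below both others (13.7% of symbols did). The second target of Col14a1 did not, with 0.22 in NIC minus Control where the brightest had -0.39.

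The types of collagen were also set side by side, which has no test with 1 array per group. In ATRA minus Control the median of the bright genes was 0.58 for 4 fibrillar chains, 0.35 for 4 basement membrane chains and 0.68 for 5 others. In ATRA+NIC minus NIC it was 0.21, 0.05 and 0.33 for the same groups. The ranges overlapped, since Col1a1 lay near 0 among the fibrillar and Col17a1 among the basement membrane chains. Over every member of a type, dim ones included, the medians were 0.30, -0.16 and 0.40 in ATRA+NIC minus NIC and 0.17, 0.30 and 0.18 in ATRA minus Control.

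The other 22 genes were dimmer, and their differences were large in both directions. Next below the limit of brightness were Col16a1 and Col11a1, named here after their values were seen. Col16a1, a fibril-associated chain, read 244 on ATRA+NIC, 460 on ATRA, 673 on NIC and 435 on Control. Col11a1, a fibrillar chain best known from cartilage, read 63.8 on ATRA+NIC, 346 on ATRA, 731 on NIC and 490 on Control. Its ATRA+NIC array was under 2 times the random probes, so it was at least 10.1-fold lower there than on NIC, at least 4.77-fold lower than on ATRA and at least 6.75-fold lower than on Control. ATRA minus Control was -0.50 and NIC the highest array. The second target of Col11a1 read 60.6, 78.1, 137 and 68.4 on the same arrays, also highest on NIC.

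Col22a1, known from tissue junctions of muscle, was the 1 gene whose measured values were at least 2-fold apart upward in both retinoic acid differences by the brightest target (0.999% of the 16218 symbols kept on that reading). It read 91.5 on ATRA+NIC and 129 on ATRA, against 37.4 on NIC and 60.5 on Control. Neither array without retinoic acid was readable, so the folds are at least 1.35 in ATRA+NIC over NIC and at least 1.89 in ATRA over Control, and a 2-fold difference is not shown. The type IV chains Col4a3 and Col4a5 read highest on NIC. Col4a3 read 19.9, 53.5, 162 and 51.5 on ATRA+NIC, ATRA, NIC and Control, and only NIC was readable. Col4a5 read 70.3, 65.9, 189 and 78.3 on the same arrays, and its neighbour Col4a6 read 26.7, 90.4, 83.7 and 73.5. Col4a4, the neighbour of Col4a3, was not analysed here.

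The remaining dim chains, named here to account for every member, had no pattern in common. Col13a1, a transmembrane chain, was readable on all arrays, with 177 on ATRA+NIC and 175 on ATRA, against 84.3 on NIC and 231 on Control. Col27a1, a fibrillar chain, read 265, 109, 144 and 121 on ATRA+NIC, ATRA, NIC and Control, while its second target read 73.4, 216, 140 and 134, so its targets disagree on which array was highest. Col19a1, a fibril-associated chain, read 198, 101, 69.4 and 146 on the same arrays. The fibrillar chains Col2a1 and Col5a3 were readable on ATRA+NIC (105 and 126) and ATRA (93.0 and 90.0), but on NIC neither was (59.1 and 49.6). Col25a1, a transmembrane chain, also read highest on ATRA+NIC, with 131, against 81.9 on ATRA, 52.0 on NIC and 84.0 on Control. Col9a3, of type IX collagen, read 58.6, 182, 159 and 124 on ATRA+NIC, ATRA, NIC and Control, and Col11a2, a partner of Col11a1, read 89.5, 62.3, 83.7 and 186. Col9a1 was readable on ATRA (72.6) and NIC (91.1), Col24a1 on NIC alone (69.0) and Col28a1 on Control alone (85.0). The brightest targets of the 5 genes readable on no array lay between 20.3 (Col10a1 on Control) and 62.9 (Col20a1 on ATRA), and no difference is read from them. A second target of Col8a2, dimmer on the mean, read 35.5 on ATRA+NIC, 17.8 on ATRA, 112 on NIC and 29.3 on Control, so that it was readable on NIC.

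Averaging the targets of a gene, as the group was defined, changed several of these values. On that reading 20 of the 35 genes were kept among 14552 symbols that reached the array's median on at least 1 array. In ATRA+NIC minus NIC 2 of the 20 were at least 2-fold higher (6.92% of symbols) and 3 lower (7.59%), and between ATRA and Control 0 were higher (4.11%) and 1 lower (5.48%). In NIC minus Control 2 were higher (5.33%) and 1 lower (5.36%), in ATRA+NIC minus ATRA 0 higher (5.00%) and 2 lower (4.26%), and in ATRA+NIC minus Control 0 higher (5.81%) and 2 lower (7.00%). No gene reached 2-fold the same way in both retinoic acid differences (0.832% higher and 1.89% lower) or in both nicotinamide differences (0.886% and 0.502%). The medians of the 20 were 0.11, 0.17, -0.12 and 0.08 in ATRA+NIC minus NIC, ATRA minus Control, ATRA+NIC minus ATRA and NIC minus Control, where all symbols had -0.01, 0.06, -0.03 and 0.04.

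Individual targets show what averaging mixes. Beside the bright target and the second, given above, Col6a3 has a dimmest target that read 40.3, 31.0, 28.0 and 234 on ATRA+NIC, ATRA, NIC and Control, readable on Control only. The ATRA minus Control difference of Col6a3 was 1.10 by the brightest target and -1.04 over the mean of all 3, and the second target alone, readable on every array, was also below 0. For Col3a1 the second target read 60.8 on ATRA+NIC, 32.8 on ATRA, 58.0 on NIC and 90.8 on Control, and averaging gave -0.39 in place of 0.70. For Col5a2 the second target read 103, 30.6, 69.0 and 47.3, and averaging gave 0.12 in place of 0.88. Of the dimmer targets of Col1a2 and Col12a1, 1 of Col1a2 passed 2 times the random probes on ATRA alone (72.5) and the others did not pass it on any array. Those of Col6a2 were readable on all, and the second, given above, went against the brightest. Why targets of a gene differ was not tested.

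**Figure D3:**
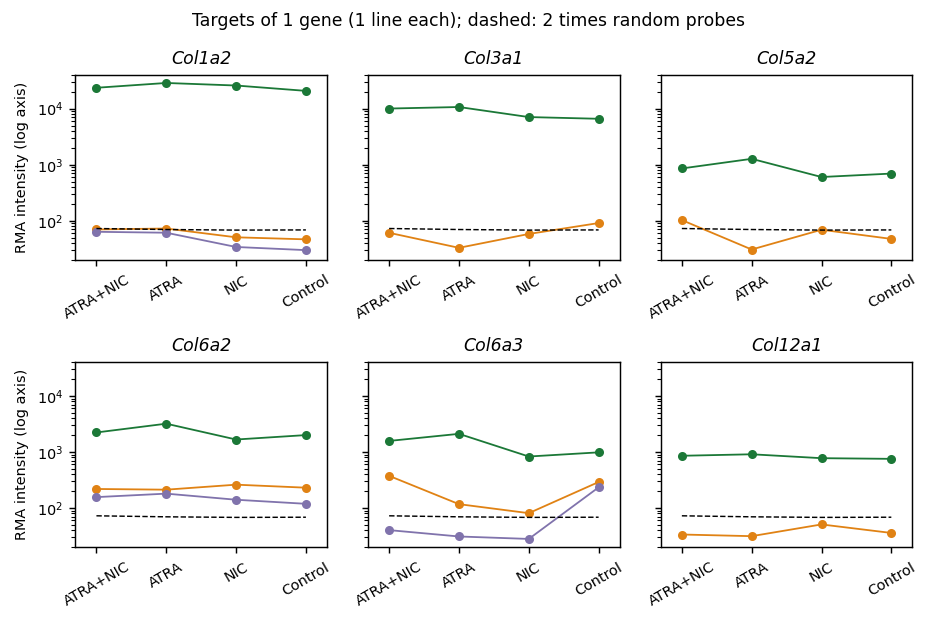
Intensity (log axis) of every target of 6 collagen genes on the 4 arrays, 1 line per target, green for the brightest; the dashed line is 2 times the random probes. In Col3a1, Col5a2 and Col6a3 the dimmer targets do not follow the brightest, nor does the second target of Col6a2.

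An additive limma model over all 4 arrays, with a term for each treatment and 1 residual degree of freedom, was fitted on all kept symbols. Its p-values hold only where the treatments add. On averaged targets 0 of the 20 collagen genes rose or fell with retinoic acid (smallest Benjamini-Hochberg adjusted p = 0.651 by limma, 0 with an unadjusted p under 0.05), where 0.0137% of symbols rose and 0.605% fell. None was called for nicotinamide (smallest adjusted p = 0.981 by limma, 0 unadjusted), and in that fit 0% of symbols rose or fell with it. With the brightest target 0 of 26 were called for retinoic acid (0% of symbols rose and 0.407% fell), and Col6a3, Col11a1 and Col22a1 had an unadjusted p under 0.05 (smallest adjusted p = 0.527 by limma). Among the 6043 bright symbols 0 of 13 were called (0.761% rose and 2.33% fell), with Col3a1, Col5a2 and Col6a3 under 0.05 unadjusted and a smallest adjusted p of 0.0522 by limma. A fit of the brightest target that lets the variance follow intensity, chosen after the data were seen, called Col6a3 as risen (1.01 ± 0.29, SE, adjusted p = 0.0246) and Col11a1 as fallen (adjusted p = 2.59e-05). In that fit 0.906% of symbols rose and 1.83% fell. The call of Col11a1 rests on the ATRA+NIC array, where it was not readable, so the size of its estimate is not measured and is not given. The same kind of fit on averaged targets, which was planned, called 0 of the 20 collagen genes (smallest adjusted p = 0.0545 by limma). There 185 of 14552 symbols rose and 307 fell with retinoic acid. Col6a3 had an estimate of 0.09 in it (adjusted p = 0.971 by limma), so its call depends on the choice of target.

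Genes that act on collagen were read from the same arrays by their brightest target, and limma on those targets called none of them in any of the 6 lists. List counts and medians are of measured values. The counted values of Mmp8, Mmp13, Itga1 and Il6 in ATRA minus Control rest on an array where the gene was not readable. So do those of Loxl4, Mmp13, Lair1 and Tgfbr2 in ATRA+NIC minus NIC. Enzymes and chaperones that fold and modify procollagen (15 of 18 kept) had medians of -0.25 in ATRA+NIC minus NIC and 0.27 in ATRA minus Control, with 0 and 2 at least 2-fold higher (8.62% and 5.85% of symbols) and 0 lower in either (9.50% and 6.88%). Over averaged targets these medians were -0.02 and 0.08, near 0 in both. Fkbp10, a prolyl isomerase of the endoplasmic reticulum needed for type I procollagen, read 1117 on ATRA+NIC and 1193 on ATRA, against 579 on NIC and 602 on Control. It was the member with the most even retinoic acid differences, 0.95 in ATRA+NIC minus NIC and 0.99 in ATRA minus Control. Plod2, the lysyl hydroxylase of telopeptides, read 93.9 on ATRA+NIC, 191 on ATRA, 148 on NIC and 376 on Control. It was lower in every treated group than in Control, while its averaged differences were -0.38 in ATRA minus Control and -0.17 in NIC minus Control. Serpinh1, the collagen chaperone HSP47, read 4855, 8551, 6645 and 7308 in the same order of arrays.

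Procollagen proteases and crosslinking enzymes (9 of 14 kept) had medians of 0.18 and 0.66 in ATRA+NIC minus NIC and ATRA minus Control, with 1 at least 2-fold higher in each and 0 lower in either. Over averaged targets the medians were 0.26 and 0.76. Loxl1, a lysyl oxidase that crosslinks elastin and collagen, read 1003 on ATRA+NIC and 1524 on ATRA, against 633 on NIC and 788 on Control. Loxl4, of the same family, read 183 on ATRA+NIC and 119 on ATRA, against 67.8 on NIC and 100.4 on Control. Adamts2, which removes the N-propeptide of fibrillar procollagens, read 1928, 2714, 1707 and 2001 on ATRA+NIC, ATRA, NIC and Control. Pcolce2, an enhancer of C-propeptide removal, went the other way, with 779 on ATRA+NIC and 929 on ATRA, against 1459 on NIC and 1679 on Control. Both arrays with retinoic acid were lower than both without for Pcolce2 (-0.91 and -0.85), and higher for Loxl1 and Loxl4.

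Proteoglycans and proteins that bind fibrils (14 of 16 kept) had medians of 0.05 and 0.09 in the same 2 differences, with 2 and 1 at least 2-fold higher and 2 and 0 lower, and averaged targets gave 0.08 and 0.11. Lum, the fibril-binding proteoglycan lumican, was 2-fold higher in both: it read 5334 on ATRA+NIC and 5701 on ATRA, against 2572 on NIC and 2721 on Control. The arrays within each pair of groups lay close together, and nicotinamide moved the value little (-0.08 and -0.10). Fmod, the related fibromodulin, read 76.9 on ATRA+NIC, 158 on ATRA, 172 on NIC and 240 on Control, and Prelp, another small leucine-rich proteoglycan, 288, 434, 424 and 583. Both were highest on Control and lowest on ATRA+NIC.

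Genes of collagen degradation (11 of 13 kept) had the highest medians of the 6 lists, 1.02 in ATRA+NIC minus NIC and 0.92 in ATRA minus Control, with 6 and 5 at least 2-fold higher and 1 and 0 lower. The median of 1.02 is the value of Mmp13, which was readable on neither ATRA+NIC nor NIC, so no fold is read from it. Over averaged targets the medians were 0.65 and 0.92. By measured values 4 were 2-fold higher in both differences (0.999% of symbols). Timp1, an inhibitor of collagen-cutting metalloproteases, and the metalloproteases Mmp3 and Mmp9 were readable on every array, and for Mmp13, the other one, a 2-fold difference in both is not shown. Timp1 read 1606 on ATRA+NIC and 2465 on ATRA, against 262 on NIC and 495 on Control, and the gelatinase Mmp9 read 219 and 356, against 88.5 and 95.3 on the same arrays. Mmp3, stromelysin, read 910 on ATRA+NIC and 1064 on ATRA, against 325 on NIC and 239 on Control. For Timp1, Mmp9 and Mmp3 the arrays with retinoic acid did not overlap those without. Mmp13, a collagenase, read 62.3 on ATRA+NIC and 122 on ATRA, against 30.8 on NIC and 27.0 on Control, and was readable on ATRA alone, so that it was at least 1.79-fold higher in ATRA than in Control and has no fold for ATRA+NIC over NIC. Ctsk, cathepsin K, a protease that cuts collagen in lysosomes, read 4569 on ATRA+NIC and 6323 on ATRA, against 2089 on NIC and 3349 on Control. Its nicotinamide differences were -0.68 in NIC minus Control and -0.47 in ATRA+NIC minus ATRA. This list was drawn up with earlier results on Timp1, Mmp3 and Mmp9 known, so its median is no separate evidence.

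**Figure D4:**
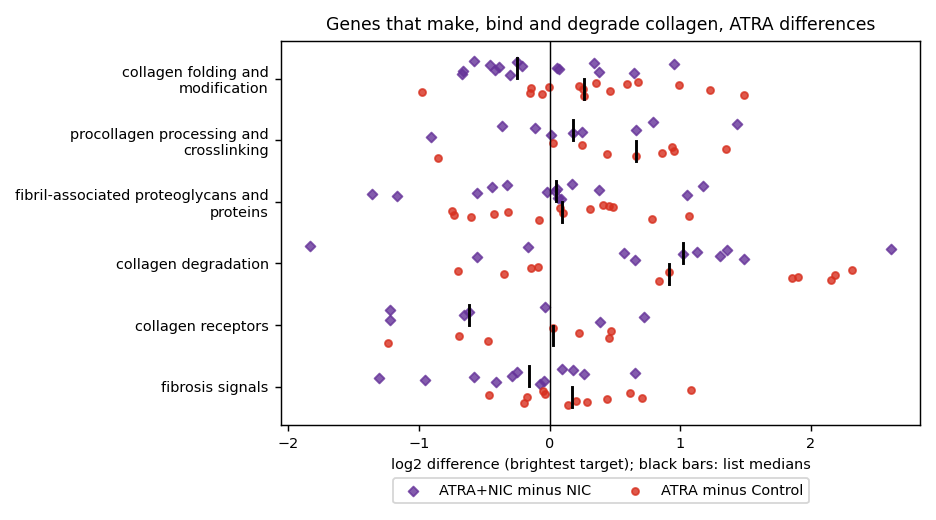
Retinoic acid differences (log2, brightest target) of the kept genes in 6 lists of genes that make, bind, cut or signal to collagen, diamonds for ATRA+NIC minus NIC and circles for ATRA minus Control; black bars are list medians. The degradation list has medians of 1.02 and 0.92, and the first is the value of Mmp13, which was readable on neither array of that difference.

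Collagen receptors (7 of 10 kept) had medians of -0.61 and 0.03 in ATRA+NIC minus NIC and ATRA minus Control, with 0 at least 2-fold higher in either and 2 and 1 lower. Over averaged targets the medians were -0.13 and 0.03. Itgb1, the beta chain shared by collagen-binding integrins, read 6331 on ATRA+NIC and 7747 on ATRA, against 3841 on NIC and 5664 on Control. Ddr1, a receptor tyrosine kinase for collagen found on epithelia, read 1453 and 1354 on ATRA+NIC and ATRA, against 2290 and 2186 on NIC and Control. Ddr2, its mesenchymal relative, read 162 on ATRA+NIC, 295 on ATRA, 249 on NIC and 252 on Control.

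Signals linked to fibrosis (12 of 12 kept) had medians of -0.16 and 0.17 in the same differences and -0.17 and 0.23 in ATRA+NIC minus ATRA and NIC minus Control. Averaged targets gave -0.16 and 0.25 in the retinoic acid differences. At least 2-fold higher were 0 and 1 in the retinoic acid differences, and 1 and 0 lower. Ccn2, the connective tissue growth factor that TGF-beta induces, was at least 2-fold higher in both nicotinamide differences (1.17% of symbols), 1.80 in ATRA+NIC minus ATRA and 1.11 in NIC minus Control. It read 684 on ATRA+NIC and 435 on NIC, against 197 on ATRA and 202 on Control, so the arrays with nicotinamide did not overlap those without. Tgfb3, a TGF-beta ligand, read 251, 377, 259 and 310 on ATRA+NIC, ATRA, NIC and Control, and Smad3, which carries the TGF-beta signal, 292, 314, 357 and 355. Neither reached 1.5-fold in a retinoic acid difference.

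Markers of the cells in skin moved between arrays as well. In these bulk samples, fewer cells of a type and less RNA per cell cannot be told apart. The 10 fibroblast markers, readable on all arrays, summed to an intensity of 16539 on ATRA+NIC, 21649 on ATRA, 16540 on NIC and 16357 on Control. The ATRA array was the highest, as for 11 of the 13 bright collagens. Vim alone, which other cells express too, read 7896 on ATRA+NIC, 10820 on ATRA, 9206 on NIC and 7454 on Control and so holds a large part of the sum. The markers' median differences were 0.24 in ATRA+NIC minus NIC and 0.60 in ATRA minus Control by the brightest target, and 0.16 in both over averaged targets. Not all markers went one way, since Thy1 (-1.06), Cd34 (-0.14) and Fbln1 (-0.11) were below 0 in ATRA minus Control. Keratinocyte markers summed to 185046, 182625, 155036 and 187986 on the same arrays, lowest on NIC as was Col17a1. Endothelial markers summed to 6672 on ATRA+NIC and 6796 on ATRA, against 3838 on NIC and 4858 on Control. Among them Vwf (-3.61, not readable on ATRA), Kdr (-0.10) and Tek (-0.10) were below 0 in ATRA minus Control, and the others above 0. Macrophage markers summed to 19355, 28402, 14818 and 22447 on ATRA+NIC, ATRA, NIC and Control. Hair shaft markers were far lower on ATRA+NIC (15016) and ATRA (7488) than on NIC (148658) and Control (66590). Of 6 cartilage markers 1 or 2 were readable on each array, with sums of 364, 444, 556 and 411 on ATRA+NIC, ATRA, NIC and Control. The part of these shifts in the collagen values was not tested.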

How the data were processed

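Skin RNA of 4 groups was measured with 1 NimbleGen array each. The authors deposited intensities on a linear scale, RMA values per the file names, which summarise 3 probes for 44155 of 44170 targets; the sources used here give no software settings. Targets were named by gene ID (39057) or by the array's symbol (2829); 2284 had no name, and 1 target described as Col6a3 was among these. The name Col4a3bp, of a binding protein, was left out. After taking log2, no further normalization was applied, and single arrays were not tested against each other. limma 3.58.1 in R 4.3.3 gave an additive fit (lmFit, eBayes), with Benjamini-Hochberg adjustment over all kept symbols at 0.05, and was tested on simulated data. Coordinates are those of the files (MM9), and promoters are from RefSeq. The members, lists and the rule for named genes (main skin chains, neighbouring pairs, genes past 2-fold in both differences of a pair or called by limma, and up to 4 genes of each list) were chosen with earlier results of these data known. Averaged targets were the planned main setting, and the brightest target was planned as an alternative to it, although it is given first here. The 75th percentile limit on the brightest target was chosen after the data were seen. The deposited value table held the same intensities for 24323 targets and served as an alternative. A workbook with 4 value columns that name no group was not used.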

Additional observations from a re-analysis of the deposited data

Results flagged for a closer look

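Col6a3, averaged over its 3 targets, had differences of opposite sign for retinoic acid, 1.22 in ATRA+NIC minus NIC and -1.04 in ATRA minus Control. Its brightest target was above 0 in both, and its second, readable on all 4 arrays, had 2.21 and -1.31. Col4a3 had differences of opposite sign for nicotinamide, -1.42 in ATRA+NIC minus ATRA and 1.66 in NIC minus Control, by its measured values. It was readable on the NIC array only, so ATRA+NIC minus ATRA compares 2 arrays under 2 times the random probes and no change is read from it, while NIC over Control was at least 2.37-fold. With 1 array per group these differences between the pairs were not tested.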

How the results depend on the processing

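Counts of collagen genes at least 2-fold apart (averaged targets) are small and are of measured values, unreadable arrays included. Of 90 recomputed fold counts 41 moved by more than 1.5 times, and of 32 recomputed limma counts 2 did. With no filter, 2 genes were lower in ATRA minus Control, 2 lower in NIC minus Control, 1 higher in ATRA+NIC minus ATRA and 2 higher in ATRA+NIC minus Control. At percentile 75 every count was 0. With the brightest target (26 genes kept), 2 were higher in ATRA minus Control (5.85% of symbols) and 5 higher and 5 lower in ATRA+NIC minus NIC (8.62% and 9.50%). On that reading 3 were lower in NIC minus Control (7.12%), 1 higher in ATRA+NIC minus ATRA (6.60%), and 1 higher and 4 lower in ATRA+NIC minus Control (7.52% and 8.81%). The value table gave 1 higher and 3 lower in NIC minus Control. At 1.5-fold, 4 were higher in ATRA minus Control, 2 lower in NIC minus Control, 1 higher and 4 lower in ATRA+NIC minus ATRA, and 5 higher in ATRA+NIC minus Control. No share of all symbols is given for these 1.5-fold counts or for those with no filter, at percentile 75 and from the value table. They are therefore not read as more or fewer than the background. 4 alternatives were chosen after the data were seen. The brightest target at percentile 75 gave 1 higher in ATRA minus Control and 0 for the other counts. The brightest target at 1.5-fold gave 7 higher in ATRA minus Control (16.1% of symbols), 8 higher and 5 lower in ATRA+NIC minus NIC (18.5% and 18.6%), 6 lower in NIC minus Control (16.3%), 3 higher and 6 lower in ATRA+NIC minus ATRA (13.0% and 14.7%), and 8 higher and 5 lower in ATRA+NIC minus Control (17.1% and 17.5%). The brightest target with an intensity trend let limma call 1 gene as risen and 1 as fallen for retinoic acid. The fourth, scaling of the bright genes, is given with them. Type IV chains alone (3 genes) had a median of -1.43 in ATRA+NIC minus NIC and 1.27 in NIC minus Control, where the 6 basement membrane chains had -0.08 and 0.37. Both type IV medians are the values of Col4a5, which was not readable on ATRA+NIC. Col4a5 was at least 2.60-fold lower there than on NIC, and no exact fold is read. Col4a1, the bright type IV chain, had 0.18 and 0.58. The other 109 medians moved by less than 0.63, the spread taken from the pairs of differences. Of named single genes, Col6a3 changed sign in ATRA minus Control, from -1.04 to 1.10 with the brightest target. Col3a1 changed sign there too, from -0.39 to 0.70. Other changes of sign with the brightest target included Col1a2 in ATRA+NIC minus NIC, from 0.41 to -0.13. Col3a1 in ATRA+NIC minus ATRA went from 0.40 to -0.09. Beside the value of Col6a3, 12 values moved, that of Col3a1 in ATRA minus Control among them. Over all symbols, limma called 2 as risen and 88 as fallen for retinoic acid, against 185 and 307 with an intensity trend. For nicotinamide it called 0, against 93 as risen and 32 as fallen with an intensity trend and 28 and 0 at percentile 75. The cause of these changes was not tested. No paired analysis was possible because each group has 1 array and the labels carry no replicate numbers. Signal over background limits the 18 genes that were not readable on all arrays, and no replicate bounds any value.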

Other observations

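Collagen genes whose array name is an older one fall outside the rule. Col26a1 (array name Emid2) read 94.2 on ATRA+NIC, 53.8 on ATRA, 67.8 on NIC and 42.4 on Control, and was readable on ATRA+NIC alone. Col6a5 read 91.8 on ATRA+NIC and 127 on ATRA, against 62.8 on NIC and 49.5 on Control, and neither array without retinoic acid was readable, so no exact fold is given. Col6a6 read 29.4, 41.1, 24.4 and 50.2 on ATRA+NIC, ATRA, NIC and Control, under 2 times the random probes on every array. Markers of other cells also differed between arrays. Skeletal muscle markers summed to 39864, 42075, 47624 and 40036, adipocyte markers to 30198, 35239, 35773 and 29735, mural and smooth muscle markers to 10543, 10103, 13946 and 9046, and Schwann cell markers to 856, 1153, 1430 and 1420 on ATRA+NIC, ATRA, NIC and Control. Acta1, Fabp4 and Acta2 hold the largest part of the muscle, adipocyte and mural sums in turn. Acta2 alone read 7390, 7495, 10913 and 5447 on the same arrays. Sums and medians can therefore differ in direction. The medians in NIC minus Control were -0.20 for skeletal muscle, 0.003 for adipocyte, -0.17 for mural and 0.02 for Schwann cell markers. In ATRA minus Control they were -0.24, 0.14, -0.12 and -0.40.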
